A study of Homo sapiens with 6 samples.

Results

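Annexins are a family of calcium-dependent proteins that bind the acidic phospholipids of membranes. The 10 genes described here, ANXA1 to ANXA7 and ANXA9 to ANXA11, were measured by 20 probe sets that the array annotation ties to a single gene, out of 41091 such probe sets for 19775 genes. The genes were chosen by family name, with the differences between the groups of these arrays already known. Those differences are therefore given as a description, with no test of their own. The study silenced SDC1, which encodes the cell surface heparan sulfate proteoglycan syndecan-1, in MDA-MB-231 cells, an established line of mesenchymal character from a human triple-negative breast cancer. Of 6 arrays, 3 came from cells given an SDC1 siRNA and 3 from cells given a negative control siRNA. Cells of both groups were thus transfected, and untransfected cells were not analysed here. No source used here gives the time from transfection to harvest, the number of siRNAs or their sequences. The cells were measured in bulk, where fewer cells making an RNA and less of it per cell cannot be told apart.

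Each annexin has a conserved core of repeats that holds the calcium sites, and a variable N-terminal head that binds partners. Annexin A1 is known as a glucocorticoid-regulated inhibitor of phospholipase A2 that signals through formyl peptide receptors. Annexin A2 forms a heterotetramer with S100A10 that gathers plasminogen and its activator at the cell surface. Several annexins gather at wounds in the plasma membrane and take part in its resealing.

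The targeted gene was checked before the annexins. SDC1 fell on both of its probe sets, to 22.7% of control on 201286_at (log2 fold change -2.14, SE 0.16, adjusted p = 6.28e-05 in limma) and to 15.3% on 201287_s_at (-2.70, SE 0.071, adjusted p = 1.05e-06). Each value below is a log2 expression relative to the median of its probe set over the 6 arrays, so levels of different genes cannot be compared. The numeric step of the values places a probe set in a coarse brightness class. It was the brightest (nominally a log2 level of 8 to 16) for 13 of the annexin probe sets, the middle for 5 and the dimmest for 2. The sample labels name no batch. The arrays were parted into 2 sets, called spike-in batches here, by whether the mean of 27 poly-A spike-in probe sets was above 0. The means ran from 0.35 to 0.60 in the first and from -0.41 to -0.38 in the second. In the first were SDC1 siRNA replicates 1 and 2 with control replicate 1, and in the second the other 3 arrays. SDC1 siRNA replicate 3 was the only silenced array of the second batch. It was the lowest of the silenced arrays for 12 of the 20 annexin probe sets, against 37.3% of all probe sets. Among the 12 were 3 ANXA2 probe sets of about the same signal and every probe set of ANXA4 and ANXA11. The part of this array and of the batches in the results was not tested, and values within the batches are given beside the pooled ones. Of the line's markers, VIM, CD44, FN1 and AXL each had a probe set in the brightest class. So did EPCAM, CDH1, ESR1, ERBB2 and GATA3, of which this line is known to make little. PGR and KRT5, also expected to be low, had none there. The class is no detection call. For 15.7% of it the values also fell on the next coarser step, as values can by coincidence. Probe sets of a lower level can enter the brightest class in the same way, so the line's identity could not be checked by it. Of the markers of other cell types, PECAM1 and VWF of endothelium and ACTA2 of muscle each had 1 probe set in that class, and PTPRC, CD3E and CD14 of blood cells, DES of muscle and ALB of liver had none.

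Most annexin probe sets were lower after SDC1 siRNA. The log2 fold change was below 0 for 15 of the 20, beside 25622 of all 54613 probe sets. Its median was -0.17, beside 0.01 over all probe sets. Without regard to sign the median was 0.21 for the annexins and 0.13 for all probe sets. In the fit over all probe sets 6 annexin probe sets were past an adjusted p of 0.05 and lower, beside 10.1% of all probe sets, and none was past it and higher, beside 9.70% of all. These 6 were among the 13 in the brightest class, where 19.1% of all probe sets were lower. For 11 annexin probe sets every silenced array was below every control array, beside 17.4% of all probe sets. All 11 were of the brightest class, where 5161 of all 16931 probe sets did the same. Among the 11 were 3 ANXA2 probe sets of about the same signal. For 2 more annexin probe sets every silenced array was above, beside 18.3% of all. With 1 value per gene, the mean of its probe sets, 6 of the 10 genes were past the threshold and lower and 0 higher. Over all genes the shares were 14.1% and 12.7%. These 6 are not the genes of the 6 probe sets. They include ANXA2, none of whose probe sets was past the threshold, and leave out ANXA1. The counts describe the chosen genes and carry no test.

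**Figure D1:**
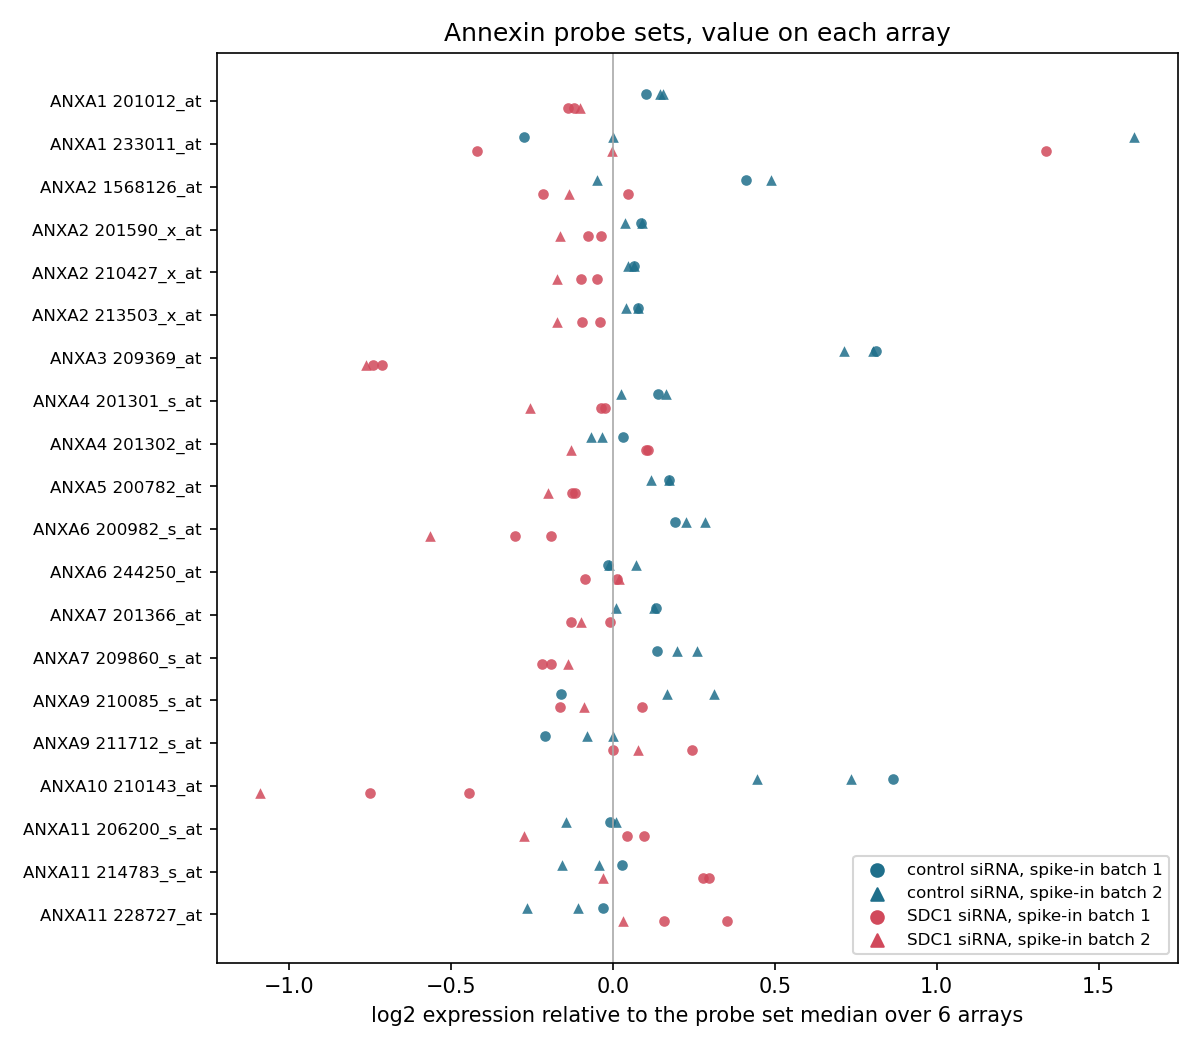
Log2 expression on each of the 6 arrays relative to the median of the probe set (horizontal axis) for the 20 annexin probe sets (rows), with control siRNA arrays in blue, SDC1 siRNA arrays in red, circles for the first spike-in batch and triangles for the second. The groups stand far apart for ANXA3 and ANXA10, lie close together but apart for ANXA1 201012_at and ANXA5, and mix for ANXA1 233011_at and ANXA6 244250_at.

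ANXA3 had the largest difference of the family. Annexin A3 is known from the granules of neutrophils. Its single probe set 209369_at, of the brightest class, read 0.81, 0.71 and 0.80 in the control arrays and -0.74, -0.71 and -0.76 in the SDC1 siRNA arrays, replicates 1 to 3. The groups were separated by many times their own spread, with means of 0.78 ± 0.055 and -0.74 ± 0.024 (SD, n = 3 each). The log2 fold change was -1.52 (SE 0.069), which leaves 35.0% of the control signal, a 2.86-fold difference. Within the batches it was -1.54 and -1.52.

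ANXA10 was nearly as far apart but more variable. Annexin A10 is an atypical annexin of the gastric epithelium whose calcium sites are largely lost. Its probe set 210143_at, also of the brightest class, read 0.87, 0.73 and 0.44 in the control arrays and -0.44, -0.75 and -1.09 in the silenced ones. The groups did not overlap, and their means were 0.68 ± 0.22 and -0.76 ± 0.32 (SD, n = 3 each). The log2 fold change was -1.44 (SE 0.17), 36.8% of control, and it was -1.46 and -1.68 within the batches. The SE of ANXA10 was thus 0.17 against 0.069 for ANXA3 at a like difference.

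The promoters of these genes are printed because they belong to the annexins with the largest differences, together with that of ANXA6, which comes next. RefSeq windows of build GRCh38.p14 matched all 10 genes with 14 start sites, and the 250 bases before the start are shown 5′ to 3′ on the gene's strand. Capitals mark letters of the motifs that a search on both strands found. The motifs were the TATA box (TATAAA), the GC box (GGGCGG), the CCAAT box (CCAAT), the AP-1 site (TGACTCA), the E-box (CACGTG), the cyclic AMP response element (TGACGTCA), a STAT site (TTCNNNGAA), an interferon response core (GAAANNGAA) and a GATA site (AGATAA). ANXA3 lies at chr4:78551520-78551769 on the plus strand, ANXA10 at chr4:168092287-168092536 on the plus strand and ANXA6 at chr5:151157780-151158029 on the minus strand.
ANXA3: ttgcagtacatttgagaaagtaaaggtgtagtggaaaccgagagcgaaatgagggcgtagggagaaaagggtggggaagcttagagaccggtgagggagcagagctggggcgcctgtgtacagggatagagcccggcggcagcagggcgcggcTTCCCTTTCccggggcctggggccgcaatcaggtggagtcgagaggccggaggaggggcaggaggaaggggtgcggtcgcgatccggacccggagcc
ANXA10: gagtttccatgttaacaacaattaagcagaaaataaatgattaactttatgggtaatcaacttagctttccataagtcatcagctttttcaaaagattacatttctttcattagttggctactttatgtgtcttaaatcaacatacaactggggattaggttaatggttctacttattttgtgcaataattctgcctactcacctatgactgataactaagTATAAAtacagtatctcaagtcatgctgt
ANXA6: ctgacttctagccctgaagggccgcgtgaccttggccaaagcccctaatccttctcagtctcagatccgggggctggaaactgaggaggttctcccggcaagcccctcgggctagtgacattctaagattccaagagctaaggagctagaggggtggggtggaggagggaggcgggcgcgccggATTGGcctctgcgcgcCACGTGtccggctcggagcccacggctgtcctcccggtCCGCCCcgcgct

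The windows of ANXA3 and ANXA10 differ in base composition. ANXA10 was 31.2% G and C with 0 CG dinucleotides and held a TATA box. ANXA3 was 64.0% G and C with 18 CG dinucleotides and held no TATA box, but an interferon response core. The printed window of ANXA6, at 65.6% G and C, held a GC box, a CCAAT box and an E-box. The window of its other start site, at chr5:151141685-151141934 and 56.4% G and C, held none of the motifs. Over all 35116 windows of this length the median was 58.0% G and C and 11 CG dinucleotides. A TATA box was found in 10.7% of all windows, an interferon response core in 6.9%, a GC box in 42.6%, a CCAAT box in 32.0% and an E-box in 6.3%. The other motifs occurred in 4.2% (AP-1), 1.6% (cyclic AMP response element), 6.6% (STAT) and 9.2% (GATA) of windows and in none of these 3. Of the 14 annexin windows, 4 held a TATA box and 7 a GC box. A match is a match of letters and shows no binding.

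In the genome ANXA10 lies next to DDX60, an interferon-induced RNA helicase gene, whose log2 fold change was -1.81 (SE 0.15, limma adjusted p = 4.75e-05), a fall, while SPOCK3 on the other side was at -0.05 (adjusted p = 0.587). Beside ANXA6, TNIP1, which encodes an inhibitor of NF-kB signalling, fell by 0.61 (SE 0.062, adjusted p = 0.000153) and CCDC69 rose by 0.32 (adjusted p = 0.0221). BMP2K beside ANXA3 fell by 0.26 (adjusted p = 0.00876), and FRAS1 on its other side was at 0.16 (adjusted p = 0.132). Of the 20 nearest protein-coding neighbours of the family, 3 rose and 3 fell, beside 12.7% and 14.1% of all genes, a share near that of all genes. Those that rose were RORB beside ANXA1 (0.49), GMCL1 beside ANXA4 (0.57) and CCDC69. The neighbours were looked up after the annexin values had been seen.

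ANXA6 followed at a smaller size. Annexin A6 has a doubled set of repeats and is known for roles in cholesterol transport and in Ras and protein kinase C signalling. Its bright probe set 200982_s_at read 0.19, 0.28 and 0.23 in the control arrays and -0.30, -0.19 and -0.56 after silencing. The groups did not overlap, and the lowest value was that of SDC1 siRNA replicate 3. The log2 fold change was -0.59 (SE 0.10), 66.6% of control, with -0.44 and -0.82 within the batches. Its other probe set 244250_at, of the middle class, overlapped between groups and gave -0.03 (SE 0.071).

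ANXA1, ANXA5 and ANXA7 had small differences with tight arrays. Annexin A5 binds phosphatidylserine on dying cells and is used as a probe for it. ANXA5 (200782_at) read 0.17, 0.17 and 0.12 in the control arrays and -0.12, -0.13 and -0.20 after silencing, a log2 fold change of -0.30 (SE 0.068) or 81.0% of control. ANXA1 (201012_at) read 0.10, 0.15 and 0.15 in the control arrays and -0.14, -0.12 and -0.10 after silencing, a difference of -0.25 (SE 0.066) or 83.8% of control. The arrays of both genes did not overlap between groups, and the values within the batches were -0.30 and -0.35 for ANXA5 and -0.23 and -0.25 for ANXA1. The ANXA1 probe set left the called ones in 9 of 15 other settings, those without any single array except control replicate 1 among them, while its value stayed between -0.27 and -0.23.

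The other ANXA1 probe set, 233011_at, is of the dimmest class and was erratic. It read 1.61 in control replicate 3 and 1.34 in SDC1 siRNA replicate 1, against values from -0.42 to 0.00 on the other 4 arrays. The high arrays belong to different groups and different batches. The log2 fold change was -0.14 with an SE of 0.54, and it was 0.73 in the first batch and -0.81 in the second. Averaging both probe sets gave ANXA1 a value of -0.20 (SE 0.27).

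ANXA7, whose product has a long N-terminal head and was first known as synexin, was lower on both probe sets. The first, 209860_s_at, read 0.14, 0.20 and 0.26 in the control arrays and -0.19, -0.22 and -0.14 after silencing. Its log2 fold change was -0.38 (SE 0.071), 76.8% of control, and -0.34 and -0.37 within the batches. The second, 201366_at, gave -0.17 (SE 0.074), or 89.0% of control. Neither overlapped between the groups.

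ANXA2 was measured by 4 probe sets, of which 3 end in _x_at, a suffix for probes that can match other sequences. ANXA2 has processed pseudogenes of near-identical sequence, so what these probe sets measure is uncertain. The 3 probe sets differed by at most 0.03 on any array and gave -0.16, -0.17 and -0.17 (SE 0.071, 0.069 and 0.070), about the same signal measured repeatedly. The probe set 213503_x_at read 0.08, 0.04 and 0.08 in the control arrays and -0.04, -0.10 and -0.17 after silencing. These groups did not overlap. The probe set 1568126_at, of the middle class, read 0.41, -0.05 and 0.49 in the control arrays and 0.05, -0.22 and -0.13 after silencing, with overlap through control replicate 2, and gave -0.38 (SE 0.14). Without that array it gave -0.55. The mean of all 4 was -0.22 (SE 0.068), 85.8% of control. That mean was past the threshold, while the brightest class alone (-0.17) and the set without the suffix (-0.38) were not.

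**Figure D2:**
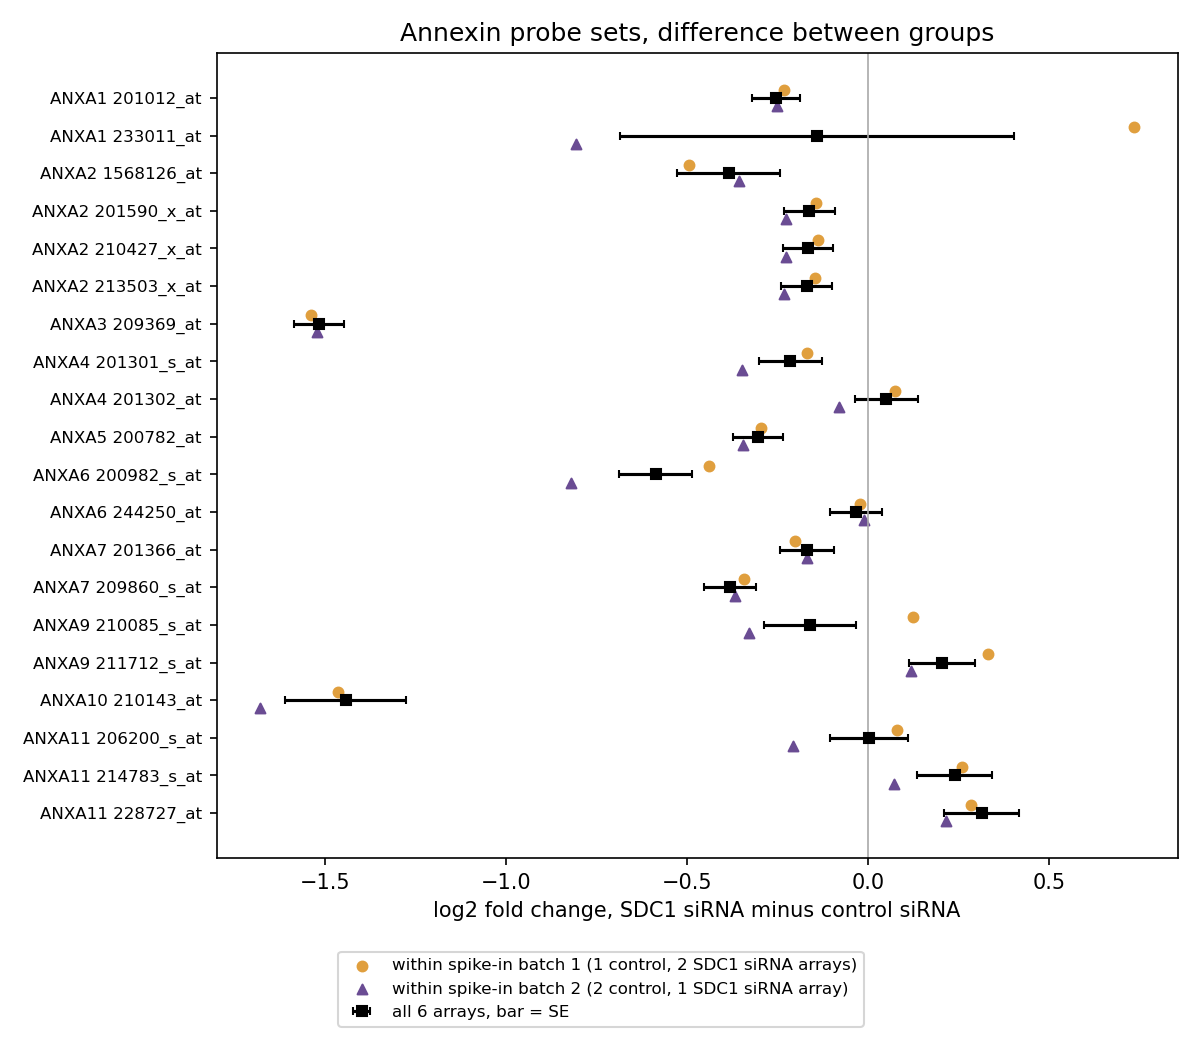
Log2 fold change, SDC1 siRNA minus control siRNA (horizontal axis), of the 20 annexin probe sets (rows), with black squares and SE bars for all 6 arrays and coloured marks for the values within each spike-in batch. ANXA3 (-1.52) and ANXA10 (-1.44) lie apart from the other 18, which run from -0.59 to 0.31. The 2 batches give opposite signs for ANXA1 233011_at, ANXA4 201302_at, ANXA9 210085_s_at and ANXA11 206200_s_at.

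ANXA4, ANXA9 and ANXA11 showed no common direction between their own probe sets or were higher. Annexin A4 is an epithelial annexin that lies beneath the apical membrane. ANXA4 read -0.21 (SE 0.087) on 201301_s_at, where the groups did not overlap. It read 0.05 (SE 0.087) on 201302_at, where they did, though both are of the brightest class. Within the batches 201302_at gave 0.07 and -0.08. ANXA9, whose product lacks working calcium sites, gave -0.16 (SE 0.13) and 0.20 (SE 0.091) on a middle and a dim probe set. The middle one, 210085_s_at, was at 0.12 in the first batch and -0.33 in the second.

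ANXA11 was above 0 on all 3 probe sets, though 1 of them turned below 0 with either other scaling. Annexin A11 has a long, disordered N-terminal head and is known for carrying RNA granules on lysosomes. Its probe set 228727_at read -0.03, -0.11 and -0.26 in the control arrays and 0.35, 0.16 and 0.03 after silencing. The groups did not overlap, and the log2 fold change was 0.31 (SE 0.10), 124.3% of control. The sets 214783_s_at and 206200_s_at gave 0.24 (SE 0.10) and 0.00 (SE 0.11), both with overlap. The brightest one, 206200_s_at, was at 0.08 in the first batch and -0.21 in the second, and at -0.01 with quantile normalization. Without SDC1 siRNA replicate 3, 228727_at gave 0.39 and 214783_s_at 0.35.

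Other annexin-named genes were measured by 1 probe set each, and none of the 5 passed the test. Their values were -0.12 (SE 0.060, adjusted p = 0.190) for ANXA2R, which encodes a receptor for annexin A2, and -0.06 (adjusted p = 0.624) for ANXA13. The pseudogenes ANXA2P1, ANXA2P2 and ANXA2P3 were at -0.23, -0.11 and -0.01 (adjusted p = 0.313, 0.216 and 0.937). None of the 5 had an unadjusted p below 0.05 in limma, a count of 0. Without SDC1 siRNA replicate 3, ANXA2P1 fell by 0.43 (adjusted p = 0.0095). ANXA8 and its copy ANXA8L1 share their probe sets, which gave -0.25 (SE 0.11) on 203074_at and 0.02 (SE 0.10) on 1570140_at.

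Genes that work with annexins were examined in 8 lists holding 149 measured genes. Of these, 54 (36.2%) were past the threshold, 18 higher and 36 lower, beside 26.9% of all genes. The lists were chosen with earlier results of these data known, so the shares describe the lists and carry no test. Over all genes 12.7% were higher and 14.1% lower, the background for each list below. The lists were tested gene by gene, on the mean of each gene's probe sets with adjustment over all genes, and no set test was made. Counts within the spike-in batches, of 3 arrays each, are given at the end beside those of all probe sets. In all named genes below, adjusted p is from limma.

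**Figure D3:**
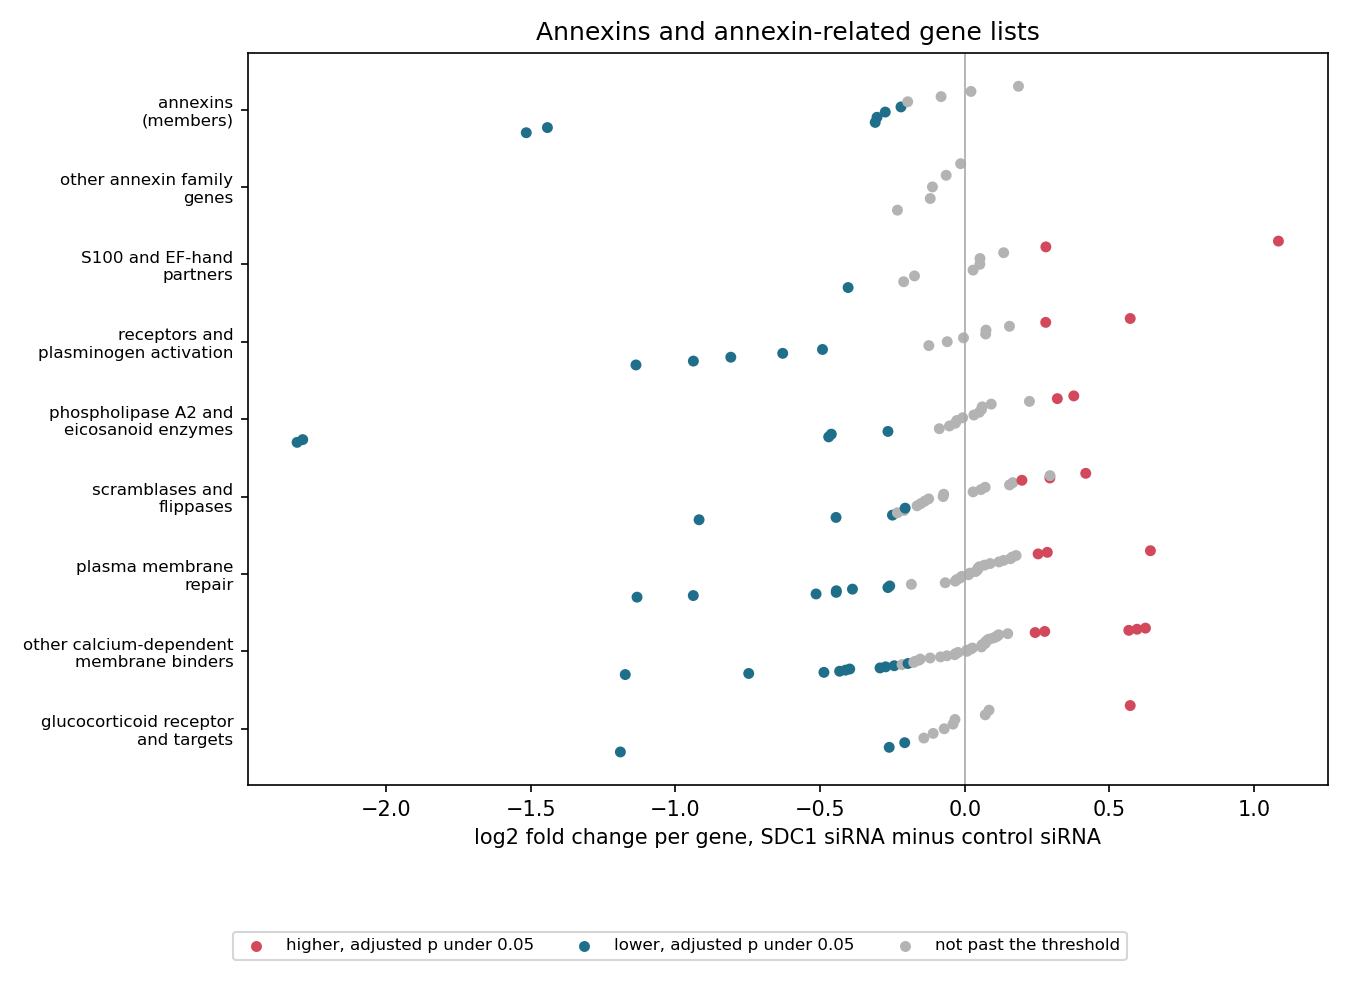
Log2 fold change per gene, SDC1 siRNA minus control siRNA (horizontal axis), for the 10 annexins and the 8 related lists (rows), with genes past an adjusted p of 0.05 in red where higher and in blue where lower. The lists spread to both sides of 0 except the 5 other annexin genes, which all lie below it, and the lowest values are those of ALOX5AP (-2.31) and PTGS2 (-2.29) among the eicosanoid enzymes.

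Among S100 and EF-hand partners, 2 of 9 measured genes rose and 1 fell, with a median of 0.05, beside 0.01 for all genes. S100A11, the partner of annexin A1, read 0.28, 0.24 and 0.10 in the control arrays and -0.24, -0.10 and -0.25 after silencing, and fell by 0.40 (SE 0.071, adjusted p = 0.00299). S100A10, the partner of annexin A2, was at -0.21 (SE 0.093, adjusted p = 0.134). Its arrays read 0.10, -0.01 and 0.05 in the controls and -0.07, -0.05 and -0.38 after silencing, so the lowest value was that of SDC1 siRNA replicate 3. Without that array it was at -0.10 (adjusted p = 0.310). It passed the threshold on its brighter probe set alone (-0.31, adjusted p = 0.0148) and once a term for the spike-in batches was fitted (-0.28, adjusted p = 0.0286). S100A4, a metastasis-associated calcium-binding protein, rose by 1.08 (SE 0.14, adjusted p = 0.000484), from -0.35, -0.33 and -0.51 to 0.87, 0.85 and 0.33. S100A6 rose by 0.28 (adjusted p = 0.0162), a call that ended without control replicate 3 (0.23, adjusted p = 0.0519) or SDC1 siRNA replicate 2 (0.24, adjusted p = 0.0626). PDCD6 and SRI, whose EF-hand products bind annexins A11 and A7, were at 0.13 and 0.05 (adjusted p = 0.373 and 0.60).

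Among surface receptors and plasminogen activation genes, 5 of 13 fell and 2 rose, with a median of -0.06. PLGRKT, a plasminogen receptor, fell by 0.94 (SE 0.064, adjusted p = 1.90e-05), and its arrays read 0.54, 0.52 and 0.41 in the controls and -0.52, -0.41 and -0.42 after silencing. The urokinase gene PLAU fell by 0.81 (SE 0.059) and its receptor PLAUR by 0.49 (SE 0.086, adjusted p = 0.00284), while PLAT, the tissue plasminogen activator that annexin A2 binds, rose by 0.57 (SE 0.13, adjusted p = 0.0105), with 0.35 in the second batch. TLR4, a receptor reported for extracellular annexin A2, fell by 1.14 (SE 0.061), and ROBO4 fell by 0.63. Of the formyl peptide receptors through which annexin A1 signals, FPR1 rose by 0.28 (SE 0.070, adjusted p = 0.0170), as the mean of probe sets at 0.04 and 0.52, the second of which is the brighter. That call ended without control replicate 2 (0.26, adjusted p = 0.058). FPR2 and FPR3 were at -0.12 and -0.06 (adjusted p = 0.242 and 0.689).

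Phospholipase A2 and eicosanoid enzymes had 5 of 18 lower and 2 higher, with a median of -0.02. PLA2G4A, the cytosolic phospholipase A2 that annexin A1 is known to inhibit, read 0.22, 0.20 and 0.17 in the control arrays and -0.36, -0.26 and -0.17 after silencing, and fell by 0.46 (SE 0.064, adjusted p = 0.000804). ALOX5AP, which presents arachidonic acid to 5-lipoxygenase, fell by 2.31 (SE 0.17, adjusted p = 3.02e-05), and PTGS2, the inducible cyclooxygenase, fell by 2.29 (SE 0.19). PLA2G15, a lysosomal phospholipase, fell by 0.47. LTA4H, which makes leukotriene B4, rose by 0.38 (adjusted p = 0.00233) and the phospholipase PLAAT3 by 0.32 (adjusted p = 0.00389).

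Scramblases and flippases move lipids across the bilayer, and some but not all of them set the exposure of phosphatidylserine. Of 21 measured genes of this list, 3 rose and 4 fell, with a median of -0.07. ATP10D, a flippase, fell by 0.92 (SE 0.069, adjusted p = 3.08e-05) and ATP8A2 by 0.44 (adjusted p = 0.00224), while TMEM30A, the subunit that flippases need to leave the endoplasmic reticulum, rose by 0.42 (adjusted p = 0.00218). The scramblase PLSCR1 fell by 0.25 (adjusted p = 0.0153), a call that ended without control replicate 3 (-0.22, adjusted p = 0.0515), SDC1 siRNA replicate 1 (-0.24, adjusted p = 0.0547) or SDC1 siRNA replicate 2 (-0.23, adjusted p = 0.0592). The flippases ATP10A and ATP8B3 rose by 0.29 and 0.20 (adjusted p = 0.0175 and 0.0318), from probe sets that ranged from -0.12 to 0.95 and from -0.08 to 0.35. ATP10A was not called without control replicate 1 (0.24) or SDC1 siRNA replicate 2 (0.25). ATP8B3 was called only while control replicate 2, control replicate 3 and every SDC1 siRNA array were kept, with adjusted p from 0.0517 to 0.114 without each, and not with a term for the batches (0.18, adjusted p = 0.064).

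In the list of plasma membrane repair 8 of 30 fell and 3 rose, with a median of 0.02. DYSF, the repair protein dysferlin that is known to associate with annexins A1 and A2, read 0.29, 0.28 and 0.18 in the control arrays and -0.23, -0.18 and -0.18 after silencing, and fell by 0.44 (SE 0.058, adjusted p = 0.000603). EHD1, of membrane recycling, fell by 1.13 (SE 0.056), with 5 probe sets between -1.17 and -1.05. VPS4B, the ATPase that takes apart ESCRT-III filaments, fell by 0.94 (SE 0.062, adjusted p = 1.71e-05) and the ESCRT-III subunit CHMP1B by 0.51 (SE 0.089, adjusted p = 0.00283). VAMP7, a membrane fusion protein of lysosomes, fell by 0.44. CAPNS1, the small subunit of the calpains, rose by 0.64 (SE 0.057, adjusted p = 7.42e-05).

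Proteins with C2 domains are unrelated in fold to annexins, and many but not all of them bind membranes in the presence of calcium. Of 43 measured genes for such proteins, 10 were lower and 5 higher, with a median of 0.01. The copines moved apart, with CPNE3 and CPNE2 higher by 0.57 (SE 0.058) and 0.62 (SE 0.096) and CPNE8 lower at -0.40 (SE 0.058, adjusted p = 0.00112). The 3 CPNE8 probe sets ranged from -0.65 to -0.06. RASA2, a GTPase-activating protein for Ras, fell by 1.17 (SE 0.057, adjusted p = 3.68e-06), RASA3 by 0.41 (SE 0.065), and the synaptotagmin SYT1 by 0.75 (SE 0.081).

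Glucocorticoid receptor genes were examined because ANXA1 is a textbook glucocorticoid target. Of the 11 measured genes 3 fell and 1 rose, with a median of -0.07. SGK1 fell by 1.19 (SE 0.17, adjusted p = 0.00113) whereas FKBP5 rose by 0.57 (SE 0.089, adjusted p = 0.00158), although both are induced by the receptor. SGK1 was at -0.72 in the second batch. KLF9 and DUSP1 were at -0.26 and -0.21 (adjusted p = 0.0278 and 0.0325). Leaving out single arrays ended both calls. KLF9 was not called without control replicates 1 or 2 or SDC1 siRNA replicates 2 or 3 (adjusted p from 0.0714 to 0.0895), and DUSP1 not without control replicates 2 or 3 or SDC1 siRNA replicates 1 or 2 (adjusted p from 0.0871 to 0.118). DUSP1 was also not called with a term for the batches (-0.18, adjusted p = 0.0606) or without its _x_at probe set (-0.15, adjusted p = 0.0749), and the brighter class of its probe sets gave -0.31. The 5 KLF9 probe sets ranged from -1.04 to 0.05.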

How the data were processed

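Gene expression was measured on 6 Affymetrix arrays, 3 per group, 1 per sample. The values are log2 expression deposited by the authors for 54675 probe sets after RMA, per the submitters' processing notes, which name no version. The median over the 6 arrays was within 5.0e-07 of 0 for every probe set, so the deposited log2 values are centred on it, a step read from the values and not stated in the labels. Base 2 was taken because RMA gives it. No build or detection call is given in the sources used here.

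The platform annotation tied 41097 probe sets to 1 gene, 1801 to several and 11777 to none, and 41043 of the first were found by gene ID in RefSeq GRCh38.p14. The 62 control probe sets were left out. All 54613 other probe sets, and 19775 genes by the mean of their single-gene probe sets, were fitted with limma 3.58.1 (lmFit, eBayes, 2-sided) in R 4.3.3 as SDC1 siRNA minus control siRNA, with Benjamini-Hochberg adjustment at 0.05. The fit was tested on simulated data. The labels call the replicates independent without saying what separates them, so p-values rest on the spread between these arrays. Each SE and p-value uses a variance that limma moderates towards that of all fitted probe sets or genes. An SE can therefore differ from the one that the printed SDs alone would give. The number of arrays limits the precision (median SE 0.090).

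Members and lists were chosen with earlier results of these data known. Genes named are every member, SDC1, up to 6 genes of lowest p per list, all other annexin-named genes and 10 partners, receptors or targets. The brightness class was read from the spacing of the stored numbers on arrays not below the median. Alternatives were a replicate or spike-in batch block, values within batches, leaving out each array, 2 other scalings, a robust prior, the dimmest class left out, and other choices of probe sets. Of 179 listed genes, those with no probe set tied to them alone were not analysed here. Probe and protein sequences were not used here.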

Additional observations from a re-analysis of the deposited data

How the results depend on the processing

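The number of arrays limits what can be seen, and counts of calls moved most within the spike-in batches, each of which has 1 array of one group, assumed to vary like the other group. The first batch alone called 2 annexin probe sets, 3225 of all probe sets and 30 genes of the related lists. The second called 3, 1848 and 18. With all arrays these counts were 6, 10828 and 54. ANXA3 and ANXA10 were called in all 15 other settings, ANXA6 200982_s_at in 14, ANXA5 and ANXA7 209860_s_at in 13, and no called annexin probe set changed sign. Leaving out single arrays gave 5 to 7 annexin calls, beside 7810 to 9515 calls over all probe sets. Quantile normalization kept the sign of 18 of the 20 probe sets and centring each array kept that of 19. The exceptions were ANXA1 233011_at under quantile normalization (0.04) and ANXA11 206200_s_at.

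Same-numbered arrays of the 2 groups did not deviate together, with correlations of -0.008, 0.044 and 0.091 for numbers 1 to 3, so the numbers were not taken as pairs. With the replicate block, 6 annexin probe sets, 9918 of all probe sets and 54 list genes were called, with ANXA11 228727_at entering and ANXA1 201012_at leaving.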
